A study of Drosophila melanogaster with 30 samples.

Results

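The expression of 9 genes used to recognise glia was followed in fly heads that overexpressed Bchs in glia or in neurons. The genes were taken as a given list of pan-glial, astrocyte-like and ensheathing or wrapping glia genes, which holds repo, alrm, Eaat1, Eaat2, Gat, Gs2, wrapper, nrv2 and zyd. All 9 were found by FlyBase symbol among the 17704 genes that the files of both datasets list, and all 9 passed the filter on low counts in both. Glia of the fly brain support neurons: astrocyte-like glia take up the transmitters glutamate and GABA from synapses, cortex glia enclose neuronal cell bodies, and ensheathing and wrapping glia border neuropil and axon tracts. The homeodomain protein Repo is made by nearly all glia outside the midline and maintains their fate, and its regulatory sequence is the one used in repo-Gal4. Bchs (Blue cheese) is the fly counterpart of human WDFY3, a large BEACH-domain protein that acts in the autophagic clearance of protein aggregates.

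RNA was sequenced from whole heads of adult Drosophila melanogaster 22 to 31 h after eclosion, with 5 libraries in each of 6 groups. In the glia dataset, repo-Gal4/UAS-bchs::HA heads (glial overexpression) were set against heads with repo-Gal4 alone (repo-Gal4 control) and UAS-bchs::HA/+ heads (UAS control). In the neuron dataset, nSyb-Gal4/UAS-bchs::HA heads (neuronal overexpression) were set against heads with nSyb-Gal4 alone (nSyb-Gal4 control) and a further set of UAS-bchs::HA/+ heads. The Gal4 lines express the transgene in glia through repo sequence or in neurons through nSyb (neuronal Synaptobrevin) sequence, and both overexpression groups carry the same HA-tagged construct. The labels give no sex and do not say how many heads were pooled. Because whole heads were used, fewer glial cells and less RNA per glial cell cannot be told apart, and photoreceptors, muscle and fat body contribute to every library. The labels do not say that the 5 libraries of a group came from separate cultures, so p-values measure only the spread between these libraries. Levels are given as CPM, the counts scaled to each library's gene-assigned total with TMM factors, and a gene is called changed where the edgeR p-value, adjusted over all tested genes of the dataset, is under 0.05.

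The genes lie on 2L, 2R, 3R, 4 and X, in the coordinates of the BDGP6.54 assembly. repo (FBgn0011701, 3R:18236192-18239602, plus strand) has 1 annotated transcript, whose exons share 183 bases with CG7156 on the opposite strand. alrm (FBgn0039332, 3R:25381065-25382781, minus strand), which encodes a leucine-rich repeat membrane protein of astrocyte-like glia, is a single exon. The excitatory amino acid transporter genes Eaat1 (FBgn0026439, 2L:9333567-9341925, plus strand) and Eaat2 (FBgn0026438, 2L:737212-744395, minus strand) share a family, but Eaat1 clears glutamate whereas Eaat2 prefers aspartate and taurine. Gat (FBgn0039915, 4:629691-635350, plus strand) encodes the GABA transporter of astrocyte-like glia, and 289 bases of its exons hold an annotated transposable element on the same strand. Gs2 (FBgn0001145, X:11422832-11430197, plus strand) encodes a glutamine synthetase, which turns the glutamate taken up by glia into glutamine. wrapper (FBgn0025878, 2R:22379637-22382675, plus strand) encodes an immunoglobulin-domain adhesion protein and is best known from midline and cortex glia. nrv2 (FBgn0015777, 2L:6789770-6798862, minus strand) encodes a beta subunit of the sodium-potassium pump and is widely used as a glial driver gene. zyd (FBgn0265767, X:23022898-23035550, plus strand) encodes a potassium-dependent sodium-calcium exchanger that keeps calcium low in cortex glia. wrapper and zyd were therefore read as cortex glia genes, although the list files them with ensheathing and wrapping glia.

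Gene-assigned totals ran between 28685786 and 84208964 reads in the 15 libraries of the glia dataset and between 44017794 and 60266009 in those of the neuron dataset. The lowest count of any of the 9 genes in any library was 1180 reads (wrapper in a repo-Gal4 control). bchs averaged 1207 ± 50.3 CPM in glial overexpression heads, against 154 ± 67.3 CPM in repo-Gal4 control and 167 ± 83.9 CPM in UAS control heads (SD, n = 5 each). In the neuron dataset bchs averaged 428 ± 97.6 CPM with overexpression, against 102 ± 16.6 CPM in nSyb-Gal4 control and 91.3 ± 10.05 CPM in UAS control heads. Of the glia dataset, repo-Gal4 control 3 and UAS control 2 stood apart. Length slope is the change in log2 level per doubling of transcript length, with each gene taken relative to its own median over the dataset's 15 libraries. It was -0.61 and -0.92 in these 2 controls, while the other 13 libraries lay between -0.23 and 0.065. The neuron dataset lay between -0.070 and 0.088. Results of the glia dataset are therefore given with and without these 2 libraries. Among the 13 left, length slope still tended to be lower with glial overexpression. It ran from -0.23 to 0.021 there and from -0.028 to 0.065 in the controls, so the ranges overlapped but were not alike.

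Levels are compared between genes only as CPM per kilobase of exon, which takes exon length into account. Gs2 was the most abundant of the 9 in every library, with a median of 1152 CPM per kb over the 28 libraries left after setting aside the 2 of low length slope (range 957 to 1386). nrv2 followed at 277 CPM per kb and Eaat1 at 190.4 CPM per kb, and the order Gs2, nrv2, Eaat1 held in all 30 libraries. Eaat2, Gat and alrm shared the middle, with medians of 125, 116 and 104 CPM per kb. These 3 overlapped, since Eaat2 exceeded Gat in 21 and Gat exceeded alrm in 22 of the 28 libraries. zyd, wrapper and repo formed the lowest tier at 24.9, 21.1 and 21.3 CPM per kb, and wrapper exceeded repo in 12 of the 28. The gap between tiers was wide over the 28 libraries, and alrm, by median the lowest of the middle tier, exceeded zyd in all 30. Gat did not: in UAS control 2 of the glia dataset it was at 8.53 CPM per kb, below zyd at 18.2 CPM per kb. The levels per kilobase by group show the wide gap between alrm and zyd in all 6 groups, and the long ranges that the 2 libraries named above gave to Gat, Eaat1 and nrv2.

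**Figure D1:**
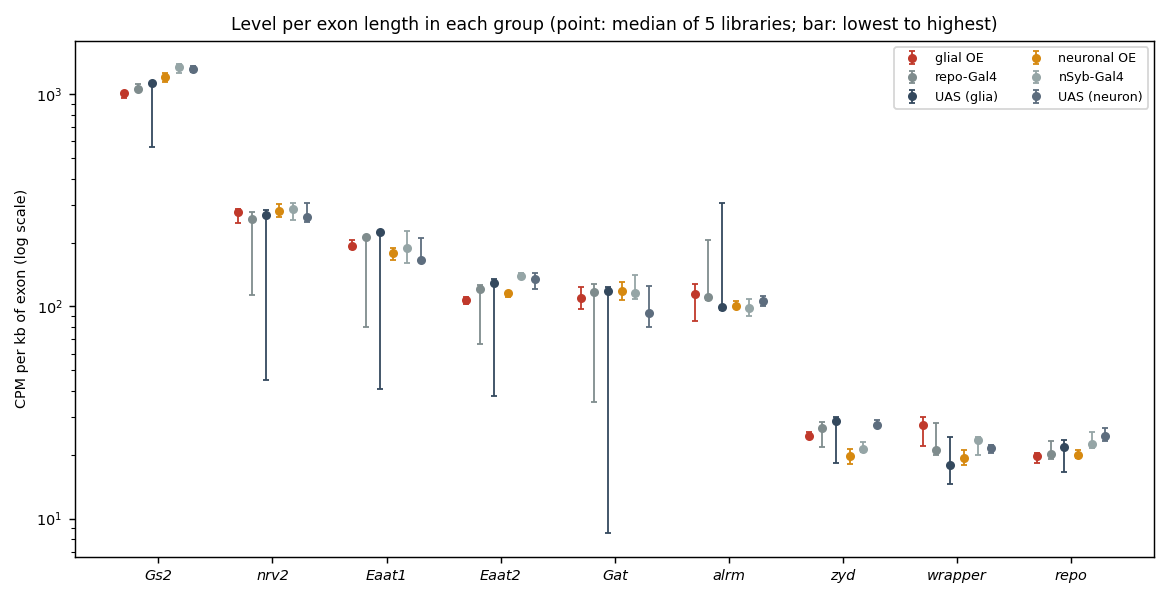
Level of each of the 9 genes in CPM per kilobase of exon (log scale) by group; OE is overexpression, points are medians of 5 libraries and bars run from the lowest to the highest library. Gs2 is highest and repo, wrapper and zyd lowest in all 6 groups; the long downward bars of the repo-Gal4 and UAS (glia) groups each come from 1 library.

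In heads with neuronal overexpression, the pan-glial gene repo and the amino acid transporter gene Eaat2 were lower than in both controls. wrapper was lower than in the nSyb-Gal4 control, Gs2 was lower than in the UAS control, and zyd was lower than in the UAS control in both groups that carried nSyb-Gal4. edgeR called none of the 9 genes higher in the neuron dataset, while DESeq2 called Gat higher than in the UAS control both with overexpression and in the nSyb-Gal4 control. DESeq2 also called Gs2 lower with overexpression than in the nSyb-Gal4 control. The changes called by edgeR were small, between 0.712 and 0.909 of the control level. Of the 9 genes, 3 were called against the nSyb-Gal4 control, all lower, where 16.5% of all 10778 tested genes were called and 8.34% were called lower. Against the UAS control 4 of the 9 were called, all lower, beside 38.6% of tested genes called and 20.2% called lower. repo and Eaat2 were called lower than both controls, beside 5.43% of tested genes. The median log2 fold change of the 9 was -0.11 relative to nSyb-Gal4 control heads and -0.14 relative to UAS control heads, beside -0.00100 and -0.012 over all tested genes. In a fit of all 6 groups, where the spread includes the glia dataset, edgeR called none of the 9 relative to nSyb-Gal4 heads (repo alone had an unadjusted p under 0.05, with an adjusted p of 0.39) and repo and zyd relative to UAS heads.

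repo was at 58.1, 63.3, 61.8, 60.0 and 58.0 CPM in the 5 neuronal overexpression libraries, 66.6, 67.3, 76.8, 64.3 and 70.3 CPM in the nSyb-Gal4 controls and 77.7, 69.3, 80.4, 73.6 and 69.7 CPM in the UAS controls. All 5 overexpression libraries lay below all 10 controls. The fall was to 0.872 of the nSyb-Gal4 control (log2 fold change -0.20, SE 0.055, edgeR adjusted p = 0.0207) and 0.812 of the UAS control (log2 fold change -0.30, SE 0.055, edgeR adjusted p = 0.000607). The call against the nSyb-Gal4 control was lost when overexpression library 1 or 5 or nSyb-Gal4 control 3 was left out (edgeR adjusted p = 0.0568, 0.0589 and 0.0575), and with length slope as a covariate (adjusted p = 0.0661). Between the nSyb-Gal4 and UAS controls the difference was not called (log2 fold change -0.10, SE 0.055, edgeR adjusted p = 0.18). Both comparisons share the 5 overexpression libraries, here and for the genes that follow.

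Among the transmitter genes, edgeR called Eaat2 against both controls. It was at 444, 463, 469, 459 and 463 CPM with neuronal overexpression, 555, 548, 572, 545 and 562 CPM in nSyb-Gal4 controls and 483, 573, 559, 497 and 541 CPM in UAS controls. The overexpression libraries again lay below all 10 controls; 6.88% of tested genes were separated from both controls in this way in 1 direction or the other, and repo and Eaat2 were the only ones of the 9. Eaat2 fell to 0.826 of the nSyb-Gal4 control (log2 fold change -0.28, SE 0.051, edgeR adjusted p = 0.00127) and 0.866 of the UAS control (log2 fold change -0.21, SE 0.051, edgeR adjusted p = 0.00486). Leaving out each library in turn ended neither call (edgeR adjusted p between 0.00083 and 0.00595, and between 0.00232 and 0.0225). Eaat2 averaged 459 ± 9.35 CPM with overexpression and 556 ± 11.1 CPM in the nSyb-Gal4 control (SD, n = 5 each).

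Its relative Eaat1, the glutamate transporter, was at 563, 589, 595, 521 and 549 CPM with neuronal overexpression, 592, 590.3, 709, 601 and 503 CPM in nSyb-Gal4 controls and 522, 558, 515, 510.5 and 658 CPM in UAS controls. The 3 groups overlapped, and neither difference was called (log2 fold change -0.089, SE 0.085, relative to nSyb-Gal4 heads and 0.027, SE 0.085, relative to UAS heads). Gs2, which acts on the glutamate taken up, was at 2694, 2814, 2769, 2539.6 and 2599 CPM with overexpression, 2814, 2871, 3014, 3028 and 3093 CPM in nSyb-Gal4 controls and 2849.7, 2939, 3002, 3024 and 2948 CPM in UAS controls. Its overexpression libraries lay below all 5 UAS controls and overlapped the nSyb-Gal4 controls at overexpression 2 and nSyb-Gal4 control 1 only. edgeR called Gs2 only against the UAS control (log2 fold change -0.14, SE 0.049, edgeR adjusted p = 0.0364), with nearly the same change against the nSyb-Gal4 control (log2 fold change -0.14, SE 0.049, edgeR adjusted p = 0.0572). Leaving out any of 8 single libraries of the dataset ended the edgeR call against the UAS control, with edgeR adjusted p between 0.0530 and 0.124 (without overexpression 1, 2, 4 or 5, nSyb-Gal4 control 3, or UAS control 2, 3 or 4). DESeq2 called Gs2 lower than in both the nSyb-Gal4 and the UAS control (log2 fold change -0.14 and -0.13, DESeq2 adjusted p = 0.00352 and 0.00608). It called 18.9% and 41% of tested genes in these comparisons.

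Gat overlapped between all 3 groups. It was at 344, 376, 357, 312 and 326 CPM with neuronal overexpression, 335, 342, 408, 314 and 314 CPM in nSyb-Gal4 controls and 269.6, 318, 237, 231 and 363 CPM in UAS controls. The UAS controls spread the most, from 230.5 CPM in library 4 to 363 CPM in library 5, and the log2 fold change against them of 0.27 (SE 0.11) was not called (edgeR adjusted p = 0.0625). DESeq2 called it (log2 fold change 0.29, adjusted p = 0.0323), as it did 41% of tested genes, and it also called Gat higher in the nSyb-Gal4 control than in the UAS control (log2 fold change 0.28, adjusted p = 0.0469; 29.5% of tested genes). edgeR called the overexpression difference without UAS control 5, at a log2 fold change of 0.39 (adjusted p = 0.00356), and also without overexpression 4, nSyb-Gal4 control 3 or UAS control 2 (adjusted p = 0.0448, 0.0376 and 0.0322). alrm, the other astrocyte marker, was at 179, 182, 173, 173 and 172 CPM with overexpression, 169, 155, 186, 166 and 178 CPM in nSyb-Gal4 controls and 185, 183, 173, 192 and 176 CPM in UAS controls. Its groups overlapped and no difference was called (log2 fold change 0.041, SE 0.051, and -0.051, SE 0.051).

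Of the cortex glia genes, zyd showed the largest difference. It was at 87.0, 93.5, 92.8, 80.2 and 86.4 CPM with neuronal overexpression, 93.0, 96.8, 101, 91.1 and 93.5 CPM in nSyb-Gal4 controls and 122, 122, 127, 119 and 128 CPM in UAS controls. The UAS controls lay above all 10 libraries that carried nSyb-Gal4, while the 2 Gal4-carrying groups overlapped. For 7.87% of tested genes the nSyb-Gal4 controls likewise lay wholly below the UAS controls. Against the UAS control alone, the overexpression libraries of repo, Eaat2, Gs2 and zyd, 4 of the 9, did not overlap it and lay lower, as did those of 13.8% of tested genes. zyd fell to 0.712 of the UAS control with overexpression (log2 fold change -0.49, SE 0.049, edgeR adjusted p = 1.4e-06) and to 0.770 of it in the nSyb-Gal4 control (log2 fold change -0.38, SE 0.049, edgeR adjusted p = 3.8e-05). zyd was the only one of the 9 that edgeR called between the 2 controls, where 25.6% of all tested genes were called. Between overexpression and the nSyb-Gal4 control it was not called (log2 fold change -0.11, SE 0.049, edgeR adjusted p = 0.138).

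wrapper was at 38.2, 37.7, 41.6, 39.4 and 35.5 CPM with neuronal overexpression, 47.0, 47.8, 42.3, 39.3 and 46.6 CPM in nSyb-Gal4 controls and 43.5, 42.0, 43.8, 42.8 and 40.4 CPM in UAS controls. The ranges overlapped, with 4 of the 5 overexpression libraries below every UAS control and 3 below every nSyb-Gal4 control. wrapper fell to 0.864 of the nSyb-Gal4 control (log2 fold change -0.21, SE 0.056, edgeR adjusted p = 0.0147), a call that was lost without overexpression library 5 (adjusted p = 0.0567). Against the UAS control it was just outside the threshold (log2 fold change -0.14, SE 0.056, edgeR adjusted p = 0.0521), and inside it without overexpression 3, nSyb-Gal4 control 4 or UAS control 5 (adjusted p = 0.0359, 0.0322 and 0.0424). nrv2, the pump subunit gene, was at 1006, 1022, 1082, 947 and 985 CPM with overexpression, 1027, 1042, 1095, 996 and 917 CPM in nSyb-Gal4 controls and 896, 937, 994, 937 and 1094 CPM in UAS controls. Its ranges overlapped throughout and its log2 fold changes were -0.0100 (SE 0.063) and 0.054 (SE 0.063).

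**Figure D2:**
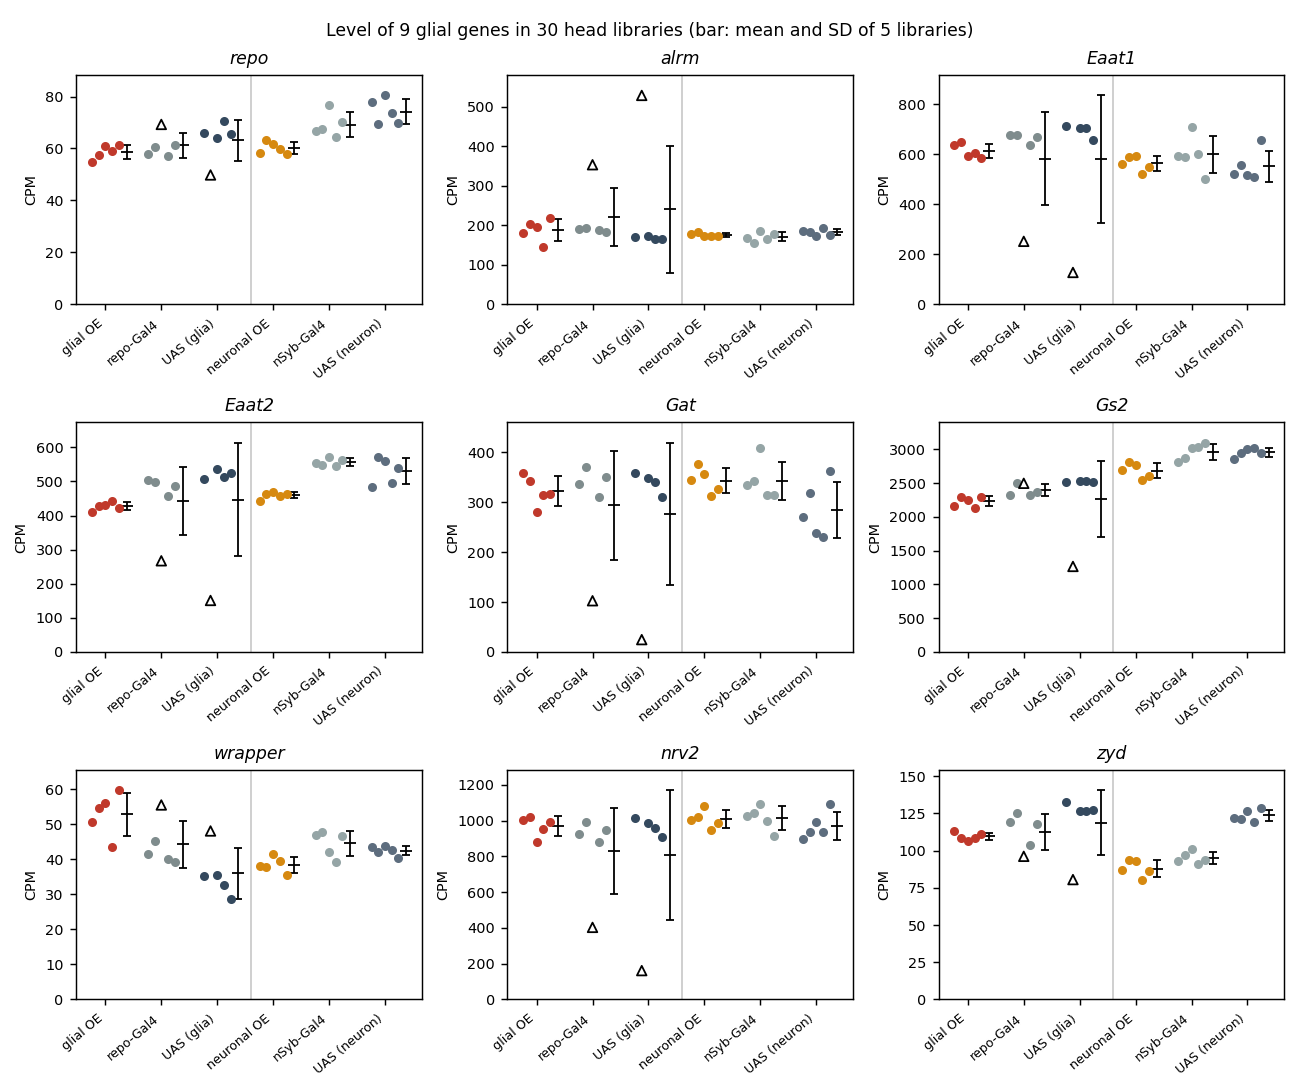
CPM of each of the 9 genes in each library, in 6 groups of 5 libraries (OE is overexpression), with the mean and SD of the 5 libraries beside them; open triangles are repo-Gal4 control 3 and UAS control 2 of the glia dataset. The 5 neuronal OE libraries lie below all 10 controls for repo and Eaat2, and both triangles lie far below the rest for Eaat1, Eaat2, Gat and nrv2 and above the rest for alrm.

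Markers of other cells moved in the same libraries. The summed level of the 5 muscle genes was 6708 to 8814 CPM with neuronal overexpression, 9521 to 10568 CPM in nSyb-Gal4 controls and 8954 to 10257 CPM in UAS controls, so the overexpression libraries were below all controls. That of the 13 neuron genes was 7280.1 to 8921 CPM, against 6399 to 8988 CPM in nSyb-Gal4 controls and 5249.7 to 8492 CPM in UAS controls. Of these, 4 of the 5 muscle genes were called lower relative to nSyb-Gal4 heads and 3 relative to UAS heads, and 0 and 8 of the 13 neuron genes were called higher. Over all tested genes, 8.34% and 20.2% were called lower and 8.19% and 18.3% higher in these 2 comparisons. None of the muscle and neuron genes was at 0 in any library. The 7 fat body genes summed to 19798 to 45182 CPM with overexpression, 45719 to 72066 CPM in nSyb-Gal4 controls and 36909 to 67129 CPM in UAS controls, so all 5 were below all nSyb-Gal4 controls. The 6 genes of blood-brain barrier glia summed to 1105 to 1463 CPM with overexpression, 1456 to 1604 CPM in nSyb-Gal4 controls and 1414 to 1643 CPM in UAS controls. The 7 photoreceptor genes summed to 38076 to 41475 CPM with overexpression, 40695 to 47240.0 CPM in nSyb-Gal4 controls and 41746 to 47063 CPM in UAS controls. The 5 hemocyte genes summed to 286 to 432 CPM with overexpression, 386 to 459 CPM in nSyb-Gal4 controls and 343 to 439 CPM in UAS controls. Single genes did not all follow these sums. Relative to UAS heads, 1 fat body, 0 barrier, 1 photoreceptor and 2 hemocyte genes were called higher, and 4, 3, 3 and 0 lower. Relative to nSyb-Gal4 heads none was called higher, and 3, 2, 1 and 0 were called lower. The shares of all tested genes are those given above. The part of these shifts in the falls of repo, Eaat2, wrapper and zyd was not tested.

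In the glia dataset, none of the 9 genes was called by edgeR over all 15 libraries, in any of the 3 comparisons. At an unadjusted p under 0.05 there were 0 against the repo-Gal4 control, 1 (wrapper) against the UAS control and 0 between the controls, and DESeq2 called 0, 1 (wrapper) and 0, where it called 1.58%, 3.61% and 2.44% of all tested genes. Few genes of any kind were called: 0.484% of 11149 against the repo-Gal4 control, 1.13% against the UAS control and 0.888% between the controls. The 2 libraries of low length slope stood apart for most of the 9, and furthest for Gat. Gat was at 358, 342, 281, 314 and 317 CPM with glial overexpression, 337, 371, 103, 311 and 349.6 CPM in repo-Gal4 controls and 359, 24.7, 349, 341 and 310.3 CPM in UAS controls. The third repo-Gal4 control and the second UAS control were low, and all other libraries lay between 281 and 371 CPM.

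The 9 genes did not respond alike in these 2 libraries. Relative to the median of the other 13 libraries, the log2 difference of UAS control 2 was -3.79 for Gat, -2.57 for nrv2, -2.36 for Eaat1 and -1.69 for Eaat2. alrm was higher there, by 1.52, with 529 CPM against 146 to 218.5 CPM in the 13. repo (-0.29), zyd (-0.55), Gs2 (-0.88) and wrapper (0.21) moved less. repo-Gal4 control 3 had the same order at the ends, with 0.94 for alrm and -1.73 for Gat. Genes of like length differed: among the 2186 tested genes of 2 to 3 kb the median difference in UAS control 2 was -0.19, which repo nearly matched, while only 4.35% of that class lay below Gat and 13.7% below nrv2. alrm, of 1717 bases, stood above 80% of its class of 1 to 2 kb in UAS control 2 and above 91.1% in repo-Gal4 control 3.

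**Figure D3:**
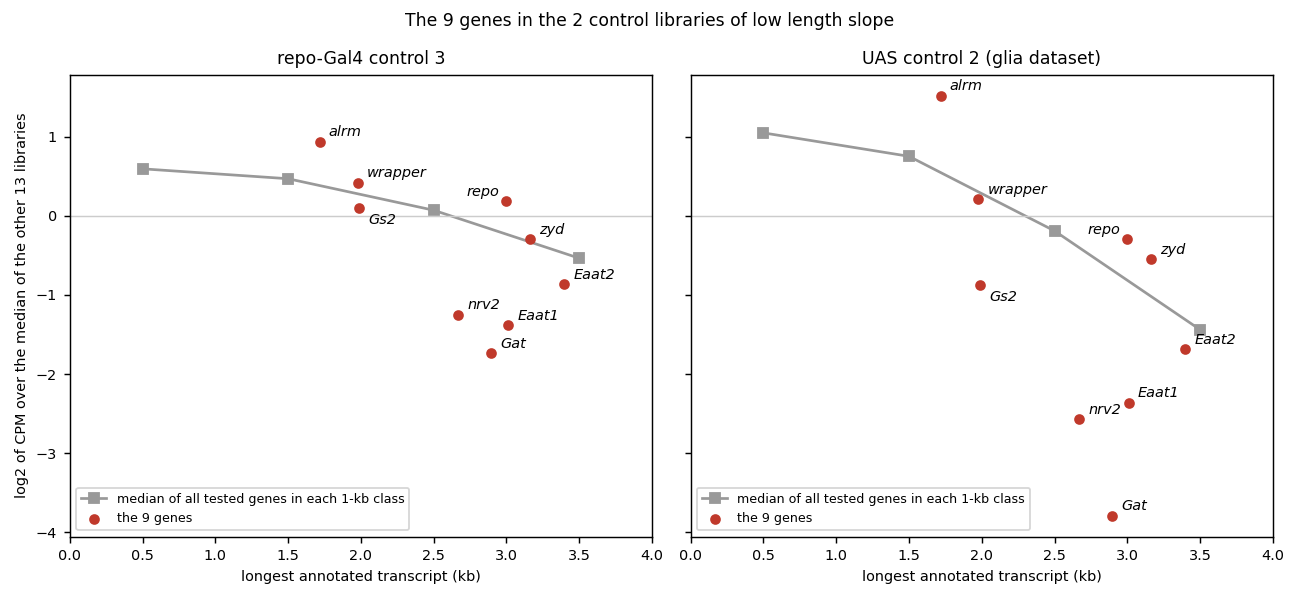
Log2 of each gene's CPM in repo-Gal4 control 3 (left) and UAS control 2 (right) over its median in the other 13 libraries of the glia dataset, against the length of its longest annotated transcript in kb; grey squares are the medians of all tested genes in classes of 1 kb. In both libraries alrm lies above and Gat, nrv2 and Eaat1 lie well below the medians of genes of like length.

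Without these 2 libraries, wrapper was higher and Eaat2 lower in glial overexpression heads than in both controls. Gs2, repo and zyd were lower than in the UAS control only. Both libraries set aside were controls, while every overexpression library stayed in, with length slopes down to -0.23. Relative to the median of the other 13 libraries, wrapper was itself higher in both, by 0.42 in repo-Gal4 control 3 and 0.21 in UAS control 2 (log2). Setting them aside thus lowered the control level of wrapper. The 9 genes then had 2 calls against the repo-Gal4 control, with 6.35% of 11129 tested genes called, and 5 against the UAS control, with 17.2% called. Calls in 1 direction against both controls numbered 2 of the 9, beside 3.97% of tested genes. The median log2 fold change of the 9 was -0.081 and -0.17, against 0.026 and 0.027 over all tested genes. Between the 2 controls, edgeR called none of the 9 over the 13 libraries, with 3 at an unadjusted p under 0.05 and 4.35% of tested genes called.

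wrapper was at 50.6, 54.8, 56.0, 43.7 and 59.7 CPM with glial overexpression, 41.6, 45.3, 55.6, 40.1 and 39.2 CPM in repo-Gal4 controls and 35.3, 48.1, 35.5, 32.8 and 28.7 CPM in UAS controls. With control libraries 3 and 2 set aside, 4 of the 5 overexpression libraries lay above all 8 controls and the fourth, at 43.7 CPM, lay within the repo-Gal4 range. wrapper averaged 53.0 ± 6.14 CPM in these heads (n = 5), against 41.5 ± 2.66 CPM and 33.1 ± 3.16 CPM in the controls (SD, n = 4 each). That was 1.28-fold the level of repo-Gal4 heads (log2 fold change 0.35, SE 0.090, edgeR adjusted p = 0.0361) and 1.62-fold the UAS control (log2 fold change 0.69, SE 0.090, edgeR adjusted p = 0.000299). Over all 15 libraries the log2 fold changes were 0.26 and 0.55 and neither was called by edgeR (adjusted p = 1 and 0.135). The repo-Gal4 control lay above the UAS control in every library of the 4 and 4, a difference that was not called (log2 fold change 0.34, SE 0.094, adjusted p = 0.0682).

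Within the glial overexpression group, wrapper was higher in libraries with fewer neuron marker reads. The 13 neuron genes summed to 7949, 4542, 2420.3, 11623 and 2904 CPM in overexpression libraries 1 to 5, and the length slopes of these libraries were -0.025, -0.10, -0.14, 0.021 and -0.23. The same sum was 12393, 13011, 943, 8165 and 12274 CPM in repo-Gal4 controls and 11786, 741, 12079, 12339 and 11827 CPM in UAS controls. wrapper was lowest of its group in library 4, whose neuron sum lay within the range of the 8 controls. With the length slope of the 13 libraries as a covariate, an alternative chosen after seeing the data, wrapper remained higher than in the UAS control (log2 fold change 0.48, edgeR adjusted p = 0.0134). Relative to repo-Gal4 heads it was no longer called (log2 fold change 0.18, adjusted p = 0.426), and the repo-Gal4 control itself was then called above the UAS control (log2 fold change 0.30, adjusted p = 0.0241). The percentages of all tested genes called in that fit were 3.82%, 5.32% and 7.36% for overexpression against repo-Gal4, overexpression against UAS, and repo-Gal4 against UAS. Over the 13 libraries without the covariate, 0 and 1 of the 13 neuron genes were called lower against the repo-Gal4 and UAS controls. Without it, 6.35% and 17.2% of all tested genes were called against these controls, with 1.81% and 5.41% called lower. Of the neuron genes 9 had an unadjusted p under 0.05 in each comparison, with medians of -1.09 and -1.16 on the log2 scale, and none was at 0 in any library. The share of all tested genes at an unadjusted p under 0.05 is not given. Counts at that threshold, here and elsewhere, therefore cannot be set against it. Of the 7 photoreceptor genes 1 and 2 were called lower against these controls, and of the 7 fat body, 5 muscle and 5 hemocyte genes edgeR called none (2, 1 and 0 at an unadjusted p under 0.05 relative to repo-Gal4 heads and 4, 3 and 1 relative to UAS heads), with the hemocyte gene He listed at 0 in 1 UAS control. The part of the neuron marker shift in the wrapper difference was not tested beyond this.

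**Figure D4:**
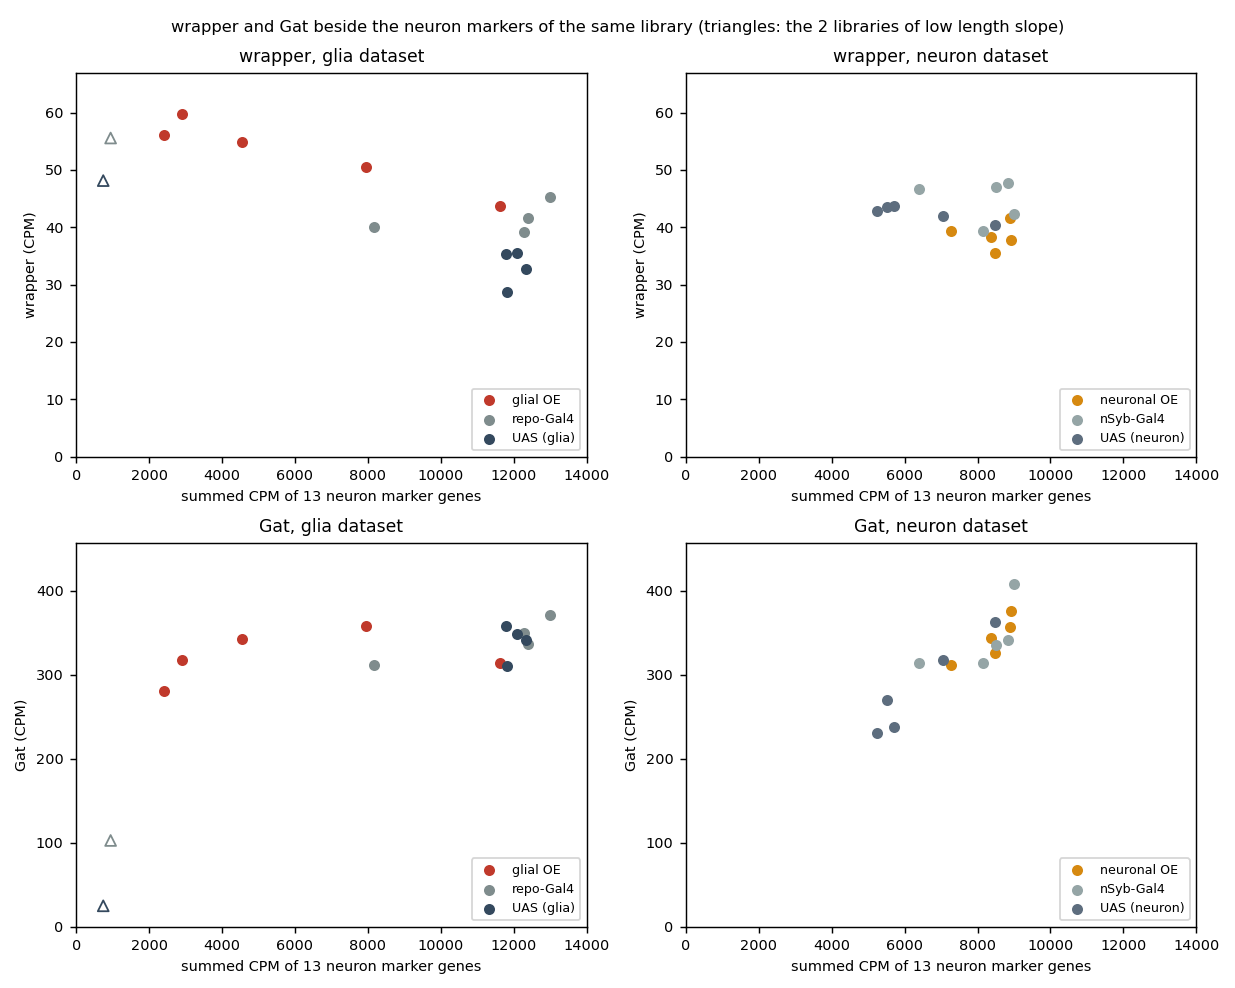
CPM of wrapper (top) and Gat (bottom) in each library against the summed CPM of 13 neuron marker genes in the same library, for the glia (left) and neuron (right) datasets; triangles are the 2 libraries of low length slope. In the glia dataset wrapper is lowest in the glial OE library with the highest neuron marker sum, and in the neuron dataset the 3 lowest Gat values are those of the 3 UAS controls with the lowest neuron marker sums.

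In the neuron dataset, Gat was low where neuron markers were low. Its 3 lowest UAS controls, 1, 3 and 4, had neuron sums of 5507, 5707 and 5249.7 CPM, and the highest, UAS control 5, had 8492 CPM. The glia dataset did not repeat this order: within glial overexpression, library 3 had the lowest Gat (281 CPM) and the lowest neuron sum, but library 4, with the highest neuron sum, had 314 CPM and library 2, with 4542 CPM of neuron genes, had 342 CPM. Gat averaged 323 ± 29.4 CPM with glial overexpression (n = 5), against 342 ± 25.0 and 339.7 ± 20.9 CPM in the repo-Gal4 and UAS controls (SD, n = 4 each). These ranges overlapped and no difference was called (log2 fold change -0.081, SE 0.079, and -0.062, SE 0.079). A fit of all 15 libraries with the slope as a covariate called Gat higher than in the UAS control (log2 fold change 0.51, edgeR adjusted p = 0.0289, with 22.8% of tested genes called), a direction that the 13 libraries did not show.

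Eaat2 was at 410.1, 429, 430.3, 444 and 423 CPM with glial overexpression, 503, 499, 267, 457 and 486 CPM in repo-Gal4 controls and 508, 151, 537, 514 and 525 CPM in UAS controls. Apart from the low repo-Gal4 control 3 and UAS control 2, every control lay above every overexpression library. Over these 13 libraries Eaat2 fell to 0.881 of its level in repo-Gal4 heads (log2 fold change -0.18, SE 0.047, edgeR adjusted p = 0.0372) and 0.827 of the UAS control (log2 fold change -0.27, SE 0.047, edgeR adjusted p = 0.00196). With the length slope as a covariate the first was not called (log2 fold change -0.16, adjusted p = 0.106) and the second was (log2 fold change -0.25, edgeR adjusted p = 0.0184). Gs2 was at 2167, 2295, 2255, 2135 and 2288 CPM with overexpression, 2323, 2503, 2496, 2317 and 2363 CPM in repo-Gal4 controls and 2512, 1266, 2523, 2536 and 2514 CPM in UAS controls. Its overexpression libraries lay below all 5 repo-Gal4 controls, a separation in the same direction shared by 1.27% of tested genes, and below all UAS controls but the second. Over all 15 libraries edgeR did not call this difference (log2 fold change -0.11, SE 0.18, adjusted p = 1). The exact permutation test of it gave its smallest possible two-sided p of 0.00794 (n = 5 each, unadjusted). Any full separation of 5 libraries from 5 gives that value, so it adds nothing to the separation. Eaat2 and Gs2 were the 2 of the 9 separated from all 8 remaining controls, and both lay below them, as did 1.8% of tested genes. Over the 13 libraries Gs2 was called against the UAS control (log2 fold change -0.17, SE 0.049, edgeR adjusted p = 0.0361) and not relative to repo-Gal4 control heads (log2 fold change -0.089, SE 0.049, edgeR adjusted p = 0.228).

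repo was at 55.0, 57.5, 61.1, 59.0 and 61.2 CPM with glial overexpression, 58.1, 60.4, 69.3, 57.2 and 61.4 CPM in repo-Gal4 controls and 66.0, 49.8, 64.1, 70.5 and 65.4 CPM in UAS controls. Apart from repo-Gal4 control 3 and UAS control 2, overexpression and repo-Gal4 control libraries overlapped and the UAS controls lay above both. repo-Gal4 control 3 lay above all but 1 of the UAS controls, and UAS control 2 was the lowest library of the dataset. Over the 13 libraries repo fell to 0.890 of the UAS control (log2 fold change -0.17, SE 0.043, edgeR adjusted p = 0.0208) and was not called relative to repo-Gal4 control heads (log2 fold change -0.010, SE 0.044). zyd had the same calls, at 113, 109, 107, 109 and 111 CPM with overexpression, 119, 125, 96.1, 104 and 118 CPM in repo-Gal4 controls and 133, 80.5, 127, 127 and 127 CPM in UAS controls. It was called over the 13 libraries against the UAS control (log2 fold change -0.22, SE 0.051, edgeR adjusted p = 0.0132) and not relative to repo-Gal4 control heads (log2 fold change -0.084, SE 0.051, edgeR adjusted p = 0.268). With the length slope as a covariate neither the repo nor the zyd difference from the UAS control was called (edgeR adjusted p = 0.0563 and 0.146), while the repo-Gal4 control was then called below the UAS control for repo (log2 fold change -0.16, adjusted p = 0.0334).

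Eaat1, alrm and nrv2 were called in no glia comparison over the 15 or the 13 libraries. Eaat1 was at 637, 649, 591, 607 and 584 CPM with glial overexpression, 678, 677, 251.99, 635 and 670.4 CPM in repo-Gal4 controls and 711, 128, 704, 705 and 656 CPM in UAS controls. Apart from the 2 low libraries, 3 of the 5 overexpression libraries lay below all 8 controls and the other two overlapped their lower end. Over the 13 libraries the log2 fold changes were -0.11 (SE 0.054) and -0.17 (SE 0.054, edgeR adjusted p = 0.0535). alrm was at 181, 203, 196, 146 and 218 CPM with overexpression, 191, 194, 353, 188 and 184 CPM in repo-Gal4 controls and 171, 529, 174, 165 and 166 CPM in UAS controls. Its overexpression libraries spread on both sides of the controls, and its log2 fold change over 13 libraries was 0.17 (SE 0.093) against the UAS control. nrv2 was at 1001, 1023, 878, 952 and 990.0 CPM with overexpression, 926, 995, 403, 883 and 948 CPM in repo-Gal4 controls and 1017, 161, 987, 959 and 906 CPM in UAS controls. Apart from the 2 low libraries its ranges overlapped. A fit of all 15 libraries with the slope as a covariate called nrv2 higher than in the UAS control (log2 fold change 0.41, adjusted p = 0.0203), where the 13 libraries gave 0.015 (SE 0.063).

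**Figure D5:**
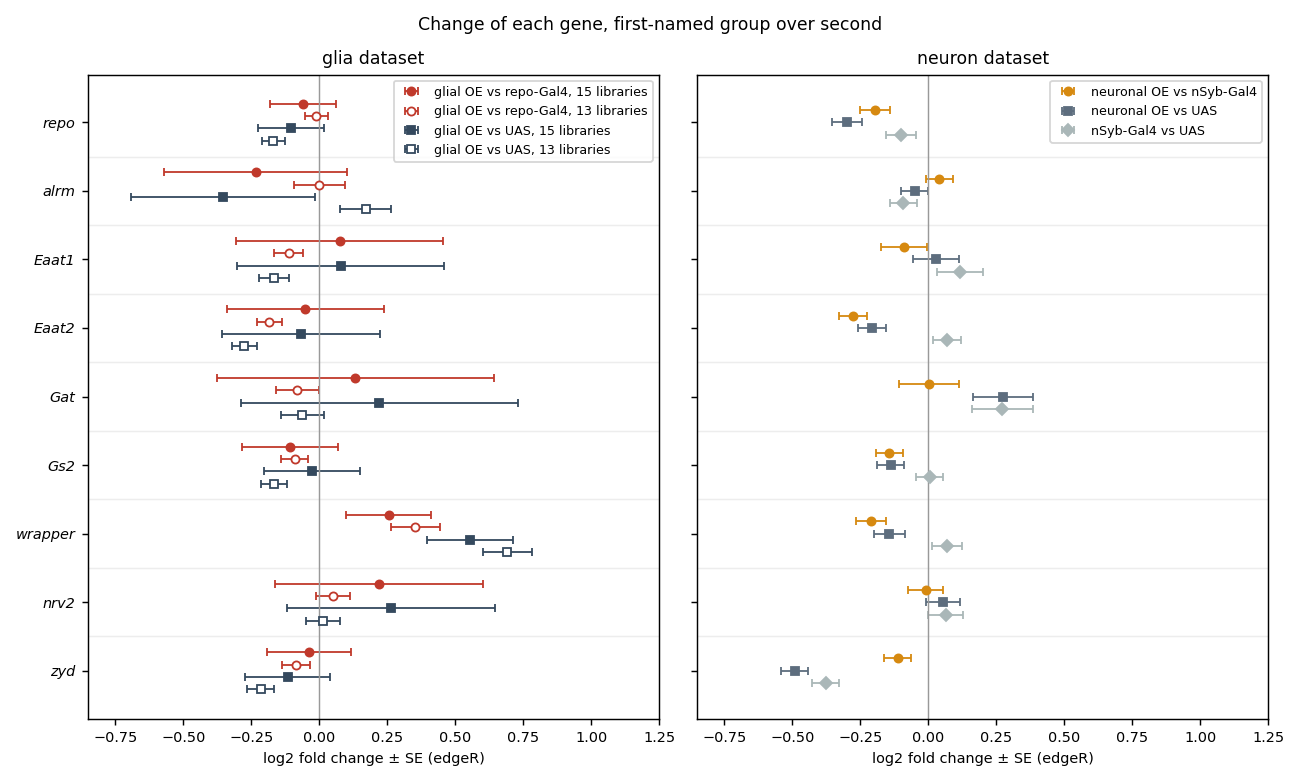
Log2 fold change and SE of each gene from edgeR, first-named group over second; glia dataset on the left, over all 15 libraries (filled) and over 13 (open), and neuron dataset on the right (OE is overexpression). wrapper lies right of 0 in both glial comparisons and left of 0 in both neuronal ones, Eaat2 lies left of 0 in all 4 comparisons of overexpression, and zyd is lower than in the UAS control in both groups with nSyb-Gal4.

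Whether a gene responded differently to the 2 drivers was tested as the glial effect minus the neuronal effect, each against the mean of its own controls, in a fit of all 30 libraries. edgeR called none of the 9, with wrapper the 1 at an unadjusted p under 0.05 (1.1% of 11137 tested genes were called), while DESeq2 called wrapper and 2.55% of tested genes. wrapper differed by a log2 value of 0.56 (SE 0.14, edgeR adjusted p = 0.0517). Without the 2 libraries wrapper was called, at 0.69 (SE 0.093, adjusted p = 1.7e-05), as were 34.2% of tested genes. For Eaat2 the difference between the drivers was 0.00096 over these libraries (SE 0.056), and for Gs2 it was 0.0015 (SE 0.055). For repo and zyd it was 0.15 (SE 0.063) and 0.14 (SE 0.059), neither called. Dataset, extraction and driver cannot be told apart in this difference.

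The UAS control genotype was sequenced in both datasets, after a Trizol step in the glia dataset and with the column kit alone in the neuron dataset. Over all libraries edgeR called none of the 9 between the 2 sets, with 1 at an unadjusted p under 0.05, none by DESeq2 and 3.05% of tested genes called. Without the 2 libraries of low length slope, of which UAS control 2 belongs to this comparison, 5 were called, beside 51.4% of tested genes; leaving out UAS control 2 alone gave 2 calls. In the fit without both libraries Eaat1 (0.44), Gat (0.37) and zyd (0.17) were higher in the glia dataset as log2 fold changes, and wrapper (-0.25) and Gs2 (-0.12) were lower, with edgeR adjusted p between 5.1e-05 and 0.0399. The 13 neuron genes summed to 11786, 741, 12079, 12339 and 11827 CPM in the UAS controls of the glia dataset and 5507, 7045, 5707, 5249.7 and 8492 CPM in those of the neuron dataset. Apart from UAS control 2, every sum of the glia dataset lay above every sum of the neuron dataset. Levels of the 9 genes are for this reason not compared across datasets other than through each dataset's own controls.

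Genes of the same pathways were read beside the 9, and their counts are to be set against the 16.5% of all tested genes called relative to nSyb-Gal4 heads (8.34% lower) and the 38.6% called relative to UAS heads (20.2% lower). Of 11 other genes of glutamate and GABA handling, 3 were lower and 0 higher with neuronal overexpression against the nSyb-Gal4 control, and 1 was lower and 3 higher against the UAS control; their median log2 fold changes were 0.0020 and 0.077. Gabat, the GABA transaminase, fell against both (-0.17 and -0.25, edgeR adjusted p = 0.0411 and 0.00206). Of 11 genes of the sodium-potassium pump and ion balance, 4 were lower and 0 higher against the nSyb-Gal4 control, and 3 lower and 3 higher against the UAS control (median -0.075 and -0.069). Lower against both were Irk2, an inward rectifier potassium channel gene (-0.21 and -0.24), CG5910 (-0.19 and -0.41) and Ncc69, a sodium-potassium-chloride cotransporter gene (-0.18 and -0.28). Of 19 measured other glial genes, 2 were lower and 0 higher against the nSyb-Gal4 control, and 4 lower and 3 higher against the UAS control (median -0.077 and -0.0063). The receptor genes Egfr (-0.23 and -0.29) and htl (-0.19 and -0.17) were lower against both. Over all tested genes, 5.43% were called lower against both controls. The medians over all tested genes were -0.00100 and -0.012.

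In the glia dataset, edgeR called none of these 3 lists' genes over the 15 libraries against either control; at an unadjusted p under 0.05 there were 2, 0 and 0 against the repo-Gal4 control and 1, 0 and 1 against the UAS control, and DESeq2 called 1 gene of glutamate and GABA handling lower against the repo-Gal4 control and no other. Over the 13 libraries, gb (genderblind), which encodes a glial amino acid exchanger, was higher against both controls (0.45 and 0.34, edgeR adjusted p = 0.000426 and 0.00154) and Gad1, the glutamate decarboxylase gene of neurons, was lower (-0.26 and -0.20). Ncc69 was higher (0.26 and 0.19) and kcc, a potassium-chloride cotransporter gene, lower (-0.40 and -0.53). Of the other glial genes 2 were lower and 0 higher against the UAS control. Of the glutamate and GABA genes 1 was higher and 2 lower against the repo-Gal4 control, and 3 higher and 1 lower against the UAS control. Of the pump and ion genes 1 was higher and 2 lower against each. Over all tested genes 4.55% were higher and 1.81% lower against the repo-Gal4 control, and 11.8% and 5.41% against the UAS control. Against both controls 2.97% were higher and 1.01% lower. Among 6 genes of blood-brain barrier glia, Mdr65, a drug efflux transporter gene, was higher against both controls over the 15 libraries (0.68 and 0.64, edgeR adjusted p = 0.044 and 0.0399), as were 0.0987% of tested genes. Over the 13 libraries 3 of the 6 were higher against both controls, beside 2.97% of tested genes: Gli (0.68 and 0.59), moody (0.56 and 1.03) and Mdr65 (0.73 and 0.60). The 6 genes summed to 1574, 1694, 1791, 1452 and 1712 CPM in the glial overexpression libraries, in order. The controls left out had the highest sums, 1832 CPM in repo-Gal4 control 3 and 1819 CPM in UAS control 2, and the other controls had 1373 to 1596 CPM. The part of length slope in these differences was not tested. In neuronal overexpression heads the barrier genes SPARC (-0.33 and -0.38) and Tret1-1 (-0.40 and -0.20) were lower against both, beside 5.43% of tested genes. Of the 9 genes, wrapper alone was called higher in overexpression heads over the 13 libraries.

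The genes whose pattern over the 30 libraries was most like that of repo and of alrm were sought by the root mean square difference of log2 CPM, each gene centred on its own mean, among 10677 genes. For repo they were Alg7 (0.0839), CG11779 (0.0875) and Kaz (0.0930), where the median over all genes was 0.359. For alrm they were CG7407 (0.0954), loqs (0.0994) and CG5056 (0.1004), with a median of 0.442. None of the other 8 listed genes was among the 3 nearest of either. The distances include UAS control 2 and repo-Gal4 control 3, where alrm deviated by 1.52 and 0.94 and repo by -0.29 and 0.18. How far the matches rest on these 2 libraries was not tested.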

How the data were processed

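RNA of adult heads was sequenced in 30 libraries. The authors deposited raw read counts per FlyBase gene for each library; STAR, HTSeq and BDGP6 are named in the submitters' processing notes, while the use of strand and the annotation release are not given in the sources used here. Rows that name no gene and 6063 features listed only in the glia files were left out of library sizes. Each dataset was filtered with filterByExpr, scaled by TMM and fitted with edgeR's quasi-likelihood test (edgeR 4.0.16 and limma 3.58.1 in R 4.3.3), with 3 groups in a fit. All 6 groups were fitted together for the difference between drivers and for the pair of UAS controls. P-values were adjusted over all tested genes by the Benjamini-Hochberg method. DESeq2 1.42.0, other scaling, no filter, each library left out, a replicate block, length slope as covariate and leaving out 2 libraries were alternatives. The fit without the 2 libraries and with the covariate was chosen after seeing the data. Gene positions and lengths come from the Ensembl BDGP6.54 annotation.

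The 9 genes and all lists were chosen with earlier results of these data known. All 9 genes are named, as are list genes called against both controls in 1 direction and, for repo and alrm, the 3 genes of nearest pattern. Of 20 other glial genes 19 were tested, since speck was not matched. Counting error is small at these depths, but it is the spread between libraries that the tests use. The fits were tested on simulated data. The figures were drawn with matplotlib 3.10.9.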

Additional observations from a re-analysis of the deposited data

Results flagged for a closer look

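In 12 of 54 groups of 5 libraries (9 genes in 6 groups), 1 library lay far from the other 4 by Dixon's criterion, which chance alone meets in about 1 in 20 groups. All 12 were in repo-Gal4 control 3 (5 groups) or UAS control 2 of the glia dataset (7 groups), the 2 libraries of low length slope. repo-Gal4 control 3 had 353 CPM of alrm, against 184 to 194 CPM in the other 4, and UAS control 2 had 529 CPM, against 165 to 174 CPM. Both were high for this gene. Eaat1 was at 251.99 CPM in repo-Gal4 control 3, against 635 to 678 CPM, and at 128 CPM in UAS control 2, against 656 to 711 CPM. Eaat2 was at 267 CPM, against 457 to 503 CPM, and at 151 CPM, against 508 to 537 CPM. Both amino acid transporter genes were thus low in both libraries. Gat was at 103 CPM in repo-Gal4 control 3, against 311 to 371 CPM, and at 24.7 CPM in UAS control 2, against 310.3 to 359 CPM. nrv2 was at 403 CPM, against 883 to 995 CPM, and at 161 CPM, against 906 to 1017 CPM. Gs2 and zyd stood apart in UAS control 2 only, at 1266 CPM, against 2512 to 2536 CPM, and at 80.5 CPM, against 127 to 133 CPM. repo and wrapper had no such library.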

How the results depend on the processing

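Over all alternatives, 1676 of 1836 values for single genes kept their direction and side of the threshold, 90 turned direction, 49 passed the threshold where the value reported did not and 21 no longer passed it. None of the values that turned direction belonged to a called gene. Of 9 genes, the number called for glial overexpression against the repo-Gal4 control was 0; it was 1 with length slope as covariate (5.93% of all tested genes called) and 2 without the 2 libraries of low length slope (6.35%). Against the UAS control it was 0; it was 1 with DESeq2 (3.61%), 3 with the covariate (22.8%), 5 without the 2 libraries (17.2%), 3 without them and with the covariate (5.32%), 1 in a fit of all 6 groups (4.86%), and 0 to 1 when each library was left out in turn. Between the repo-Gal4 and UAS controls 1 was called with the covariate (8.7%) and 2 without the 2 libraries and with the covariate (7.36%). For neuronal overexpression against the nSyb-Gal4 control the fit of all 6 groups called 0 in place of 3 (2.79%), and leaving out 1 library gave 1 to 4. Against the UAS control that fit called 2 in place of 4 (5.64%), and leaving out 1 library gave 3 to 6. DESeq2 called 4 lower against the nSyb-Gal4 control (18.9%), and 4 lower and 1 higher against the UAS control (41%). Between the nSyb-Gal4 and UAS controls DESeq2 called 2 in place of 1 (29.5%), and leaving out 1 library gave 1 to 2. For the difference between the drivers, DESeq2 (2.55%), other scaling (1.2%), the fit without the 2 libraries (34.2%) and effects against the UAS controls alone (2.13%) each called 1 in place of 0, and leaving out 1 library gave 0 to 1. Between the UAS controls 5 were called without the 2 libraries (51.4%), in place of 0, and leaving out 1 library gave 0 to 2. The cause of these changes was not tested.

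A replicate block changed no count of called genes but that of neuronal overexpression against the UAS control, where 3 were called in place of 4, Gs2 being lost (adjusted p = 0.0762). Same-numbered libraries did not consistently deviate together. Their correlations ran between -0.76 and 0.64 in the glia dataset, with a median of 0.23 beside 0.070 for libraries of different number. In the neuron dataset they ran between -0.43 and 0.23, with a median of 0.024 beside -0.0052. The numbers were not taken as pairs.

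The uncalled changes that turned direction were these. Without the 2 libraries the log2 changes were Eaat1 -0.11, alrm 0.00070 and Gat -0.081 for overexpression against repo-Gal4, Eaat1 -0.17, alrm 0.17 and Gat -0.062 for overexpression against UAS (glia), Gs2 -0.077, nrv2 -0.036, Eaat1 -0.053 and alrm 0.17 for repo-Gal4 against UAS, nrv2 -0.0015, Eaat1 -0.12, alrm 0.081 and Gat -0.22 for glial minus neuronal effects and nrv2 0.11 and Eaat2 0.087 for the UAS controls of glia and neuron datasets. Without them and with the slope of the other 13 as covariate the log2 changes were Eaat1 -0.064 and Gat -0.012 for overexpression against repo-Gal4, Eaat1 -0.11 for overexpression against UAS (glia) and Gs2 -0.085, nrv2 -0.033, Eaat1 -0.042 and alrm 0.12 for repo-Gal4 against UAS. With the replicate block the log2 change was Eaat2 0.029 for repo-Gal4 against UAS. With length slope as covariate the log2 changes were Eaat2 0.018 and alrm 0.079 for repo-Gal4 against UAS, nrv2 0.064 and Eaat1 0.030 for overexpression against nSyb-Gal4 and Gs2 -0.0033 and nrv2 -0.0024 for nSyb-Gal4 against UAS. With DESeq2 size factors (RLE) the log2 changes were Eaat1 -0.010 for repo-Gal4 against UAS. With the DESeq2 Wald test the log2 changes were Eaat1 -0.010 for repo-Gal4 against UAS. In the fit of all 6 groups the log2 changes were nrv2 0.00087 for overexpression against nSyb-Gal4. With no filter on low counts the log2 changes were Gat -0.0087 for overexpression against nSyb-Gal4. With effects against the UAS controls the log2 changes were Gat -0.066 for glial minus neuronal effects. When each library was left out in turn, their log2 changes ran over these ranges: for glial overexpression against the repo-Gal4 control, Eaat1 -0.12 to 0.12 and Gat -0.085 to 0.22; for glial overexpression against the UAS control, Gs2 -0.18 to 0.0053, Eaat1 -0.18 to 0.15, alrm -0.47 to 0.16 and Gat -0.071 to 0.32; for repo-Gal4 against UAS control, Gs2 -0.070 to 0.12, nrv2 -0.21 to 0.22, Eaat2 -0.23 to 0.12, Eaat1 -0.25 to 0.20, alrm -0.35 to 0.39 and Gat -0.20 to 0.31; for neuronal overexpression against the nSyb-Gal4 control, nrv2 -0.045 to 0.020 and Gat -0.028 to 0.074; for nSyb-Gal4 against UAS control, Gs2 -0.0071 to 0.025; for the difference between the drivers, Gs2 -0.0065 to 0.079, Eaat1 -0.025 to 0.13 and Gat -0.11 to 0.080; for the UAS controls of the glia and neuron datasets, nrv2 -0.29 to 0.073, Eaat2 -0.24 to 0.053, alrm -0.027 to 0.66, Gat -0.075 to 0.34 and zyd -0.020 to 0.13.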
